A study of Rattus norvegicus with 8 samples.

Results

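Messenger RNA of 10 genes of glucose uptake and glycolysis was measured in the right stellate ganglion of 4 spontaneously hypertensive rats (SHR) and 4 Wistar rats. The genes were chosen by name, as the best known genes of the pathway, with earlier results of these data known. Each is represented by 1 RefSeq record out of the 18314 records that every file lists. They are the glucose transporters Slc2a3 and Slc2a1, the hexokinase Hk1, and the enzymes Gapdh, Pgk1, Eno1, Eno2, Pkm, Ldha and Ldhb. All 10 passed edgeR's filter on low counts, which left 13659 records to test. The SHR is an inbred strain with established hypertension, and the Wistar rat, the strain from which normotensive controls of the SHR were bred, served as the normotensive control. Wistar rats are outbred, so the strains differ in much of the genome as well as in blood pressure. All rats were 16 weeks old and, per the study's methods, male, no treatment is named, and each library holds the RNA of 1 cleaned and desheathed ganglion. The stellate ganglion is a cluster of sympathetic nerve cells that supplies the heart, and it also holds glia, vessels and connective tissue.

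Glucose enters a cell through carriers of the Slc2a family, is phosphorylated by a hexokinase so that it cannot leave, and is broken down through the glycolytic enzymes to pyruvate, with a net gain of ATP and NADH. Pyruvate either enters the mitochondria or is turned into lactate by lactate dehydrogenase. Neurons carry mainly the transporter Slc2a3 (GLUT3) and the enolase Eno2, known as neuron-specific enolase, whereas Slc2a1 (GLUT1) is the main carrier of the endothelium of nervous tissue and of glia, and Eno1 is the enolase of most other cells. Several of these genes are induced when oxygen is low, through the hypoxia-inducible factors.

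The short sequence that hypoxia-inducible factors bind has the core ACGTG or GCGTG. Only the form ACGTG, called the core below, was counted. The search covered the 250 bases before the start of each gene in RefSeq's promoter windows of the rat build GRCr8. A window without ACGTG may still hold GCGTG, as those of Eno1 and Ldhb do when read on either strand. The windows are shown for 5 members that the results below turn on, Slc2a1 as the most variable, Eno2 as the one whose strains did not overlap, and Gapdh, Ldha and Eno1 as 3 of the 4 that shared their highest rats in normalised counts. Of the 2 windows of Eno1 the upstream one is shown. The core, read on either strand, is in capitals.
Slc2a1: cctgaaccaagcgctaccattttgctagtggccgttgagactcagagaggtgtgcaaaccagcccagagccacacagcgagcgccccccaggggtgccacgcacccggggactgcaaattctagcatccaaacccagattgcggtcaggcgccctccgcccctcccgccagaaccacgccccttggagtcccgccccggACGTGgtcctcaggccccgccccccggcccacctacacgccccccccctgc
Eno2: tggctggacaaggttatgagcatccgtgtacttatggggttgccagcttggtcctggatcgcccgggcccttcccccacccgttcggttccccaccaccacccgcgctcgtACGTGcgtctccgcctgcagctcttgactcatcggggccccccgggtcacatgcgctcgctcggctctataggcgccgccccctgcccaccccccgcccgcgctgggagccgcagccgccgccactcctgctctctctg
Gapdh: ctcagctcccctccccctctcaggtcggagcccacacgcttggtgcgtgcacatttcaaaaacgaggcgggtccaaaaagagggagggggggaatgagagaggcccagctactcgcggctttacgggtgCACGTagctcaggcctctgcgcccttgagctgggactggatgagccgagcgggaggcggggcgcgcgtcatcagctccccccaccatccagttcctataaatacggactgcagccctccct
Ldha: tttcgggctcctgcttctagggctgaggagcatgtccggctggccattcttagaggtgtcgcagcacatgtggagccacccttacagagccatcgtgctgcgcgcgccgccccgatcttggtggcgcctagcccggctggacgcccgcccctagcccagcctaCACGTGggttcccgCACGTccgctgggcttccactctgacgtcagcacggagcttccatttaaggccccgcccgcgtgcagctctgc
Eno1: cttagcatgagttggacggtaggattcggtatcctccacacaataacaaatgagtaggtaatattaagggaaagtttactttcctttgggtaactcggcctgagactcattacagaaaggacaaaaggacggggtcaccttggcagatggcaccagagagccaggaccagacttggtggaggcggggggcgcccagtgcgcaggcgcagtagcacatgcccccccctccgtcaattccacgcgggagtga
These are chr5:138002272-138002521 on the plus strand for Slc2a1, chr4:159267221-159267470 on the minus strand for Eno2, chr4:159652468-159652717 on the minus strand for Gapdh, chr1:106507842-106508091 on the plus strand for Ldha and chr5:166002617-166002866 on the plus strand for Eno1, each written 5′ to 3′ along its gene. The core begins 51 bases before the start of Slc2a1, 139 before Eno2 and 121 before Gapdh. In Ldha it is found at 2 places, 87 and 73 bases before the start, and the first of these lies inside CACGTG, the palindromic E-box, where the core reads on both strands. RefSeq gave 10 windows for 8 of the 10 members, Hk1 and Eno1 having 2 each, and 5 of the 10 windows held the core (ACGTG or its complement CACGT). Among the 10491 windows of tested genes 21.1% held it, and among all 33469 windows 16.6%. The windows of Eno1, Pkm and Ldhb and 1 of those of Hk1 held no ACGTG. The E-box CACGTG was found in 1 window of the members and in 7.84% of the windows of tested genes. These matches describe letters only.

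The values are given in TPM and in normalised counts. TPM, a share of all transcripts in a library, is a level corrected for record length and library size, and the normalised count is the read count scaled between rats, on which strains were tested. The libraries held between 25820299 and 35509074 estimated counts per rat. Of all tested records 389 differed between the strains (edgeR's quasi-likelihood test, Benjamini-Hochberg adjusted p under 0.05), 2.85% of the total, with 158 higher and 231 lower in SHR, and with upper quartile scaling the split was 190 higher and 183 lower. Neuronal markers were abundant in every rat, for example Th, the first enzyme of noradrenaline synthesis, at 1826 to 2397 TPM and the neuronal tubulin Tubb3 at 8925 to 11432 TPM. The fit was also run without replicate 1 of each strain. Without these 2 libraries 1068 records passed, whereas 325 did without Wistar replicate 1 alone and 454 without SHR replicate 1 alone. Of the 1068 records 1066 were also tested in all 8 rats. Among these Wistar replicate 1 lay nearer to the other Wistar rats in 504, and SHR replicate 1 nearer to the other SHR in 442. The records were picked by the remaining rats, so a poorer fit of the 2 left out was built in. No other pair was left out for comparison, so whether replicate 1 stood apart was not tested. Adipocyte marker records summed to 217 TPM in SHR replicate 1 and to between 15.0 and 81.5 TPM in the other 7 rats. Summed red blood cell records ran from 496 TPM in SHR replicate 3 to 12264 TPM in Wistar replicate 1. In a whole ganglion fewer cells of a type and less RNA per cell cannot be told apart.

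None of the 10 members passed the threshold between the strains, where 2.85% of all tested records did. The count was also 0 with DESeq2, which called 4.42% of its records, with limma on log2(TPM + 1), which called 3.02%, and with edgeR without replicate 1 of both strains, which called 7.79%. At an unadjusted p under 0.05 there was 1 member, Eno2, by edgeR, by DESeq2 and by limma on log2 TPM alike, compared with 16.8% of all tested records by edgeR. Without replicate 1 of both strains 4 members had an unadjusted p under 0.05 (Slc2a1, Eno1, Eno2 and Pkm), compared with 22% of all records tested in that fit. The members' median log2 fold change (SHR minus Wistar, on normalised counts) was 0.01, and that of all tested records was also 0.01. Of the members 5 were nominally higher and 5 lower in SHR. For 9 of the 10 the 95% confidence interval of the fold change lay within 1.5-fold in either direction, the exception being Slc2a1.

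**Figure D1:**
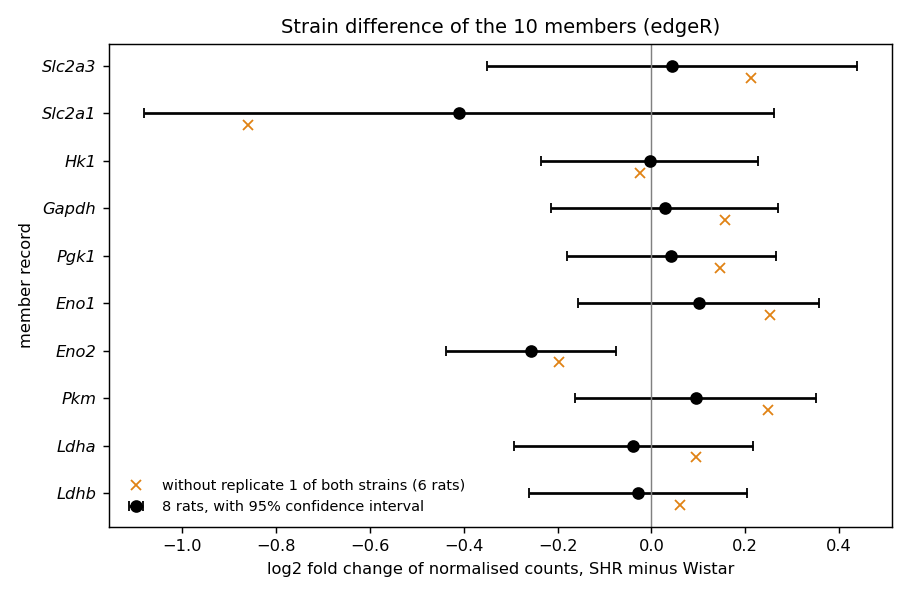
Log2 fold change of normalised counts (SHR minus Wistar, x axis) of each member record (y axis), as black points with 95% confidence intervals over 8 rats, and as orange crosses without replicate 1 of both strains. Only the interval of Eno2, from -0.44 to -0.07, lies wholly on one side of 0, and the cross of Slc2a1, at -0.86, is the one farthest from its point.

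Levels between genes are compared in TPM, which corrects for record length. The order of the means over 8 rats was Gapdh with 5127 TPM, Eno1 with 2519, Pkm with 2328, Ldha with 1872, Pgk1 with 1532, Slc2a3 with 469, Eno2 with 467, Ldhb with 261, Hk1 with 151 and Slc2a1 with 32.7 TPM. The 5 most abundant were all enzymes of the energy-yielding lower part of the pathway or of lactate production, and the hexokinase and Slc2a1 were the lowest. The ranges over rats of Eno1 and Pkm overlapped, as did those of Pkm and Ldha and of Ldha and Pgk1, although in each of these pairs the first was the higher in 8 of 8 rats. Slc2a3 and Eno2 could not be ordered, since Slc2a3 was the higher in 2 of 8 rats. All other neighbours were separated in range. The 10 records together made up 1.46% ± 0.10 of all TPM in Wistar, and in SHR 1.49% ± 0.17 (SD, n = 4 per strain). The lowest sum, 1.24%, was in SHR replicate 1.

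**Figure D2:**
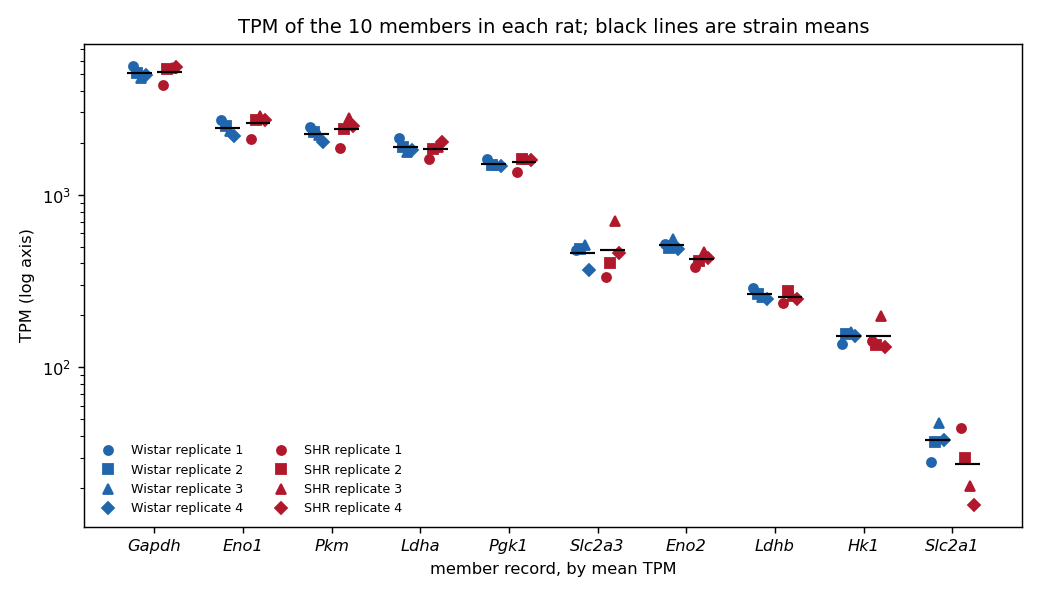
TPM on a log axis (y) of the 10 member records, ordered by mean TPM (x), with 1 marker per rat (blue Wistar, red SHR) and black lines for strain means. The means run from 5127 TPM for Gapdh to 32.7 TPM for Slc2a1. The 4 Eno2 values of SHR lie below the 4 of Wistar.

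Of the transporters, Slc2a3, the high-affinity carrier of neurons, was by far the more abundant. The record NM_017102 reached 482, 487, 509 and 367 TPM in Wistar replicates 1 to 4 and 335, 401, 708 and 462 TPM in SHR replicates 1 to 4. SHR held both the lowest and the highest rat. The strain means lay a log2 fold change of 0.04 apart (SE 0.18, edgeR adjusted p = 0.931). It was -0.13 without SHR replicate 3 and -0.04 without Wistar replicate 4. The records most like Slc2a3 over 8 rats were Atp2b2, Ssrp1 and Kcnj10, with r of 0.984, 0.976 and 0.965, high by selection among 13649 records. Kcnj10 is one of the satellite glia markers used here.

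Slc2a1, the carrier known from the endothelium of brain and nerve, varied most of all members, with a 2.99-fold span between rats. NM_138827 reached 28.2, 36.8, 47.8 and 38.0 TPM in Wistar replicates 1 to 4 and 44.2, 30.0, 20.5 and 16.0 TPM in SHR replicates 1 to 4. SHR replicate 1 was the second highest of the 8 rats and Wistar replicate 1 the lowest of its strain, so that the strains overlapped. The coefficient of variation of the normalised count was 18.2% in Wistar and 49.2% in SHR. The log2 fold change was -0.41 (SE 0.30, 95% interval from -1.08 to 0.26, edgeR adjusted p = 0.519), which was the widest interval of the 10. Without replicate 1 of both strains it was -0.86 (adjusted p = 0.0677), without SHR replicate 1 alone -0.75 (adjusted p = 0.122), and without SHR replicate 4 -0.21 (adjusted p = 0.796). This member therefore stayed short of the threshold in all of these fits, but its size rested on which rats were counted.

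Records whose log2 CPM followed Slc2a1 most closely over the 8 rats, out of 13649 searched, were Cldn24, a claudin, Thbd, the thrombin receptor thrombomodulin of endothelium, and Fhl2, with Pearson r of 0.991, 0.989 and 0.987. The highest of so many correlations over 8 rats are high by selection, and they are given as a description. Thbd stood at 13.6, 17.7, 24.8 and 17.3 TPM in Wistar replicates 1 to 4 and 25.9, 11.5, 7.02 and 5.22 TPM in SHR replicates 1 to 4. Cldn5, the main claudin of the endothelial barrier, stood at 3.45, 7.58, 11.1 and 8.49 TPM in Wistar replicates 1 to 4 and at 3.15, 3.73 and 2.68 TPM in SHR replicates 2 to 4, whereas SHR replicate 1 exceeded Wistar replicates 1, 2 and 4. Both were high in SHR replicate 1 and lower in the other 3 SHR, as was Slc2a1. Bsg (basigin), which escorts lactate carriers to the membrane, was at 405 TPM in Wistar replicate 1, 880 to 924 TPM in Wistar replicates 2 to 4, 917 TPM in SHR replicate 1 and 274 to 470 TPM in SHR replicates 2 to 4. The 9 endothelial marker records summed to 35.8 to 64.8 TPM in Wistar and 31.7 to 56.9 TPM in SHR, highest in Wistar replicate 3 and next in SHR replicate 1, and none was at 0 in all rats. Over the 9 records the median log2 fold change was 0.03, with 5 positive and 4 negative, and Cldn5, chosen after its values were seen, is 1 of them. Of these 9 records 1 was called, the Flt1 record NM_019306, higher in SHR, whereas the estimate for Slc2a1, which did not pass, was negative. That Flt1 record stood at only 0.25 to 1.14 TPM, and its counts were not whole in 8 of 8 rats, as reads divided among records give. The more abundant Flt1 record averaged 1.59 TPM and was not called (log2 fold change 0.60, edgeR adjusted p = 0.0827). The part that the amount of endothelium played in the Slc2a1 values was not tested.

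**Figure D3:**
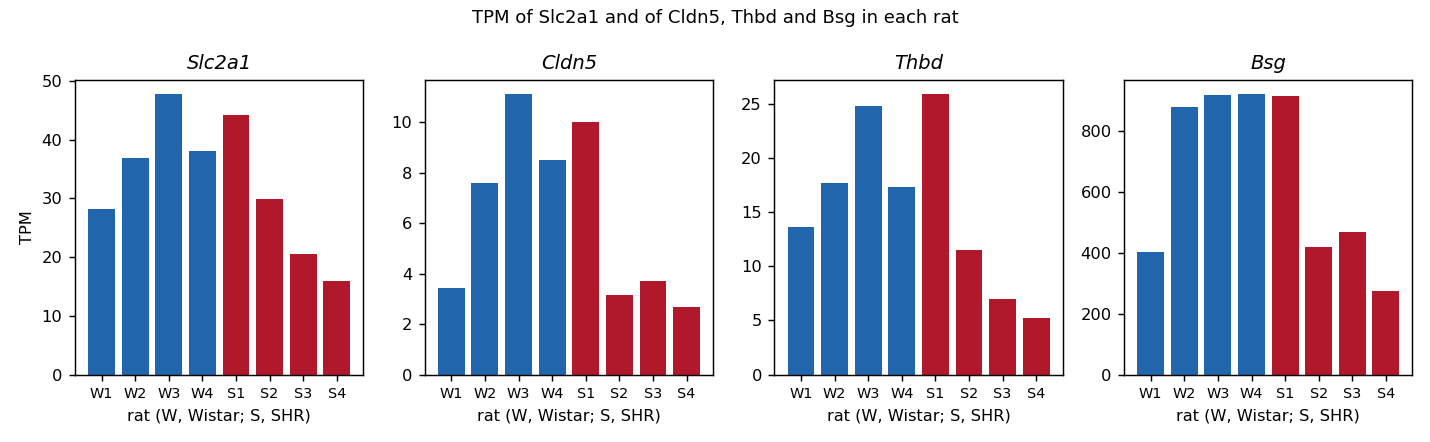
TPM (y axis, linear from 0) of Slc2a1, Cldn5, Thbd and Bsg in Wistar replicates 1 to 4 (W1 to W4, blue) and SHR replicates 1 to 4 (S1 to S4, red), 1 bar per rat. In each panel S1 is high beside the other SHR (44.2 TPM against 16.0 to 30.0 TPM for Slc2a1) and W1 is the lowest Wistar rat.

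Of the other transporters, 11 records of the 13 in the list of hexose carriers were tested, and none passed the threshold by edgeR, DESeq2 or limma, with 2 at an unadjusted p under 0.05 by edgeR. These 2 were Slc2a5, the fructose carrier, at 10.4 ± 2.03 TPM in Wistar and, in SHR, 14.4 ± 2.84 TPM (SD, n = 4 per strain, adjusted p = 0.251), and Slc2a12 at 2.45 ± 0.18 against 1.62 ± 0.45 TPM (adjusted p = 0.163). Slc2a6, a carrier of lysosomal membranes, was the most abundant after Slc2a3, with 78.8 TPM in Wistar and 69.1 TPM in SHR. The insulin-regulated carrier Slc2a4 averaged 2.29 TPM in Wistar and 1.65 TPM in SHR.

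Hk1, the hexokinase of brain and nerve, traps glucose in the cell as glucose 6-phosphate. Its record NM_012734 stood at 137, 156, 161 and 152 TPM in Wistar replicates 1 to 4 and 142, 134, 200 and 131 TPM in SHR replicates 1 to 4. SHR replicate 3 was the highest of all rats, while the other 3 SHR lay below 3 of the 4 Wistar rats, so that the strains overlapped. The log2 fold change was below 0.01 in size (SE 0.10, 95% interval from -0.23 to 0.23, edgeR adjusted p = 0.989). Hk2, the hexokinase of muscle and fat, was at 0.35 TPM on average, so nearly all hexokinase messenger RNA counted here was that of Hk1.

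Gapdh, which oxidises glyceraldehyde 3-phosphate and is widely used as a reference gene, ranked 15th by mean normalised count among all tested records. NM_017008 stood at 5583, 5087, 4764 and 4975 TPM in Wistar replicates 1 to 4 and 4351, 5328, 5435 and 5498 TPM in SHR replicates 1 to 4. SHR replicate 1 was the lowest of all rats and the other 3 SHR lay inside the Wistar range. Its log2 fold change was 0.03 (SE 0.11, 95% interval from -0.21 to 0.27, edgeR adjusted p = 0.925). The records most like it over 8 rats were Galk2, a galactokinase family member, Ppid, a cyclophilin, and Gskip, with r of 0.984, 0.977 and 0.971.

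Gapdh was also set against B2m (beta-2-microglobulin, a subunit of the class I MHC), the other reference gene of the study's PCR. B2m stood at 226, 220, 197 and 238 TPM in Wistar and 290, 279, 242 and 262 TPM in SHR. In TPM the strains did not overlap, but in normalised counts they did, with a log2 fold change of 0.31 (SE 0.13, edgeR adjusted p = 0.256). The ratio of Gapdh to B2m was 23.2 ± 1.67 in Wistar, and in SHR it was 19.4 ± 3.23 (SD, n = 4 per strain). The difference in the mean log2 ratio was -0.27 (exact permutation test, two-sided, p = 0.0857, adjusted p = 0.214 over 5 ratios, where 4 rats against 4 allow no p below 0.0286 before adjustment).

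Pgk1, which makes the first ATP of the pathway, was the steadiest member in TPM. NM_053291 stood at 1618, 1487, 1495 and 1468 TPM in Wistar replicates 1 to 4 and 1358, 1620, 1622 and 1585 TPM in SHR replicates 1 to 4. The span between rats was 1.19-fold and SHR replicate 1 was again the lowest. Its log2 fold change was 0.04 (SE 0.10, edgeR adjusted p = 0.869).

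The enolases turn 2-phosphoglycerate into phosphoenolpyruvate. Eno2 (NM_139325), the neuronal enolase, stood at 517, 492, 551 and 483 TPM in Wistar replicates 1 to 4 and 380, 416, 467 and 432 TPM in SHR replicates 1 to 4. Every SHR lay below every Wistar rat, in TPM and in normalised counts. In normalised counts alone the strains did not overlap in this direction for 5.96%, and in either direction for 10.6%, of all tested records. The log2 fold change was -0.26 (SE 0.08, 95% interval from -0.44 to -0.07), which is 0.837-fold. By edgeR the adjusted p was 0.148, so that Eno2 did not pass over all records. Its adjusted p lay between 0.113 and 0.448 over 22 alternative fits, all with the same sign, and the log2 fold change between -0.28 and -0.19.

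Eno1 (NM_012554), the enolase of most tissues, stood at 2726, 2508, 2340 and 2188 TPM in Wistar replicates 1 to 4 and 2115, 2700, 2845 and 2729 TPM in SHR replicates 1 to 4. SHR held the lowest and the highest rats. SHR differed from Wistar by a log2 fold change of 0.10 (SE 0.12, edgeR adjusted p = 0.700), and without replicate 1 of both strains it was 0.25 (adjusted p = 0.0895). The muscle enolase Eno3 averaged 4.02 TPM.

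The ratio of Eno2 to Eno1 within a rat does not depend on scaling between libraries. It was 0.190, 0.196, 0.236 and 0.221 in Wistar replicates 1 to 4 and 0.180, 0.154, 0.164 and 0.158 in SHR replicates 1 to 4. All 4 SHR lay below all 4 Wistar rats, with means of 0.211 ± 0.021 and 0.164 ± 0.011 (SD, n = 4 per strain). The mean log2 ratio differed by -0.36 (exact permutation test, two-sided, p = 0.0286, the smallest that 4 rats against 4 allow), with an adjusted p of 0.143 over the 5 ratios tested. The difference was between -0.41 and -0.30 when each rat was left out. The summed neuronal marker records ran from 47988 to 53872 TPM in Wistar and from 46203 to 53758 TPM in SHR, and 3 of these 18 records (16.7%, beside 2.85% of all tested records) were lower in SHR (2 records of Ddc, an enzyme of dopamine synthesis, and Chrnb4, a nicotinic receptor subunit) and none higher. The part of neuron content in the Eno2 values was not tested. The records most like Eno2 over 8 rats were Rabif, Hacd1 and Mpped2, with r of 0.983, 0.978 and 0.973.

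**Figure D4:**
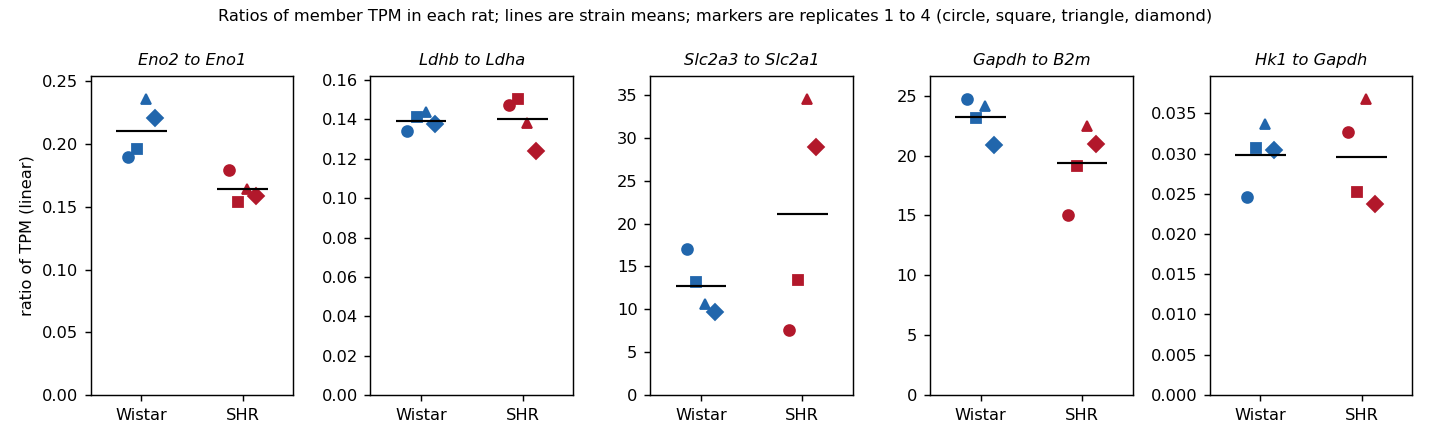
Ratios of TPM within each rat (y axes, linear from 0) for Eno2 to Eno1, Ldhb to Ldha, Slc2a3 to Slc2a1, Gapdh to B2m and Hk1 to Gapdh, with blue Wistar and red SHR markers and black strain means. The strains are separated in the first panel (0.190 to 0.236 against 0.154 to 0.180) and overlap in the other 4.

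Pkm (NM_053297), which makes pyruvate and the last ATP of the pathway, stood at 2466, 2311, 2228 and 2026 TPM in Wistar replicates 1 to 4 and 1879, 2414, 2795 and 2502 TPM in SHR replicates 1 to 4. SHR replicate 3 was the highest and SHR replicate 1 the lowest of all rats. The log2 fold change was 0.09 (SE 0.12, edgeR adjusted p = 0.718), and 0.25 (adjusted p = 0.0745) without replicate 1 of both strains. The files list 1 record for the gene, so that its muscle and embryonic splice forms could not be separated.

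The lactate dehydrogenase subunits Ldha and Ldhb convert pyruvate and lactate into each other, and tetramers rich in Ldha are those of tissues that make lactate. Ldha (NM_017025) stood at 2140, 1884, 1779 and 1816 TPM in Wistar replicates 1 to 4 and 1605, 1850, 1886 and 2016 TPM in SHR replicates 1 to 4. The ranges overlapped, with a log2 fold change of -0.04 (SE 0.11, edgeR adjusted p = 0.899). Ldhb (NM_012595) stood at 287, 267, 255 and 250 TPM in Wistar and 237, 278, 261 and 250 TPM in SHR. Its log2 fold change was -0.03 (SE 0.10, adjusted p = 0.921).

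The Ldhb record is the one member whose counts were not whole numbers, in 8 of 8 rats, because Salmon divides reads that fit several records. It held 49.5% of the gene's TPM, a further record, NM_001316333, held another 49.5%, and NM_001316334 held 0.944%. With the 3 records summed, Ldhb reached 534 ± 32.8 TPM in Wistar, and in SHR 518 ± 33.9 TPM (SD, n = 4 per strain), which is above Eno2 and Slc2a3 in the order of levels. The ratio of the Ldhb sum to Ldha was 0.281 ± 0.008 in Wistar and, in SHR, 0.283 ± 0.024 (SD, n = 4 per strain), so that Ldha was the more abundant subunit in both strains. With the member record alone the ratio was 0.139 ± 0.004 and 0.140 ± 0.012 (exact permutation test on the log2 ratio, two-sided, p = 0.943). Eno1 has a second record as well, at 0.169% of the gene's TPM.

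The remaining ratios did not separate the strains. Slc2a3 to Slc2a1, a ratio of the neuronal to the endothelial and glial carrier, was 17.1, 13.2, 10.7 and 9.65 in Wistar replicates 1 to 4 and 7.56, 13.4, 34.5 and 29.0 in SHR replicates 1 to 4. SHR held the lowest value and both of the highest (exact permutation test, two-sided, p = 0.371, adjusted p = 0.619). Hk1 to Gapdh was 0.030 ± 0.004 in Wistar and, in SHR, 0.030 ± 0.006 (SD, n = 4 per strain, exact permutation test, two-sided, p = 0.886, adjusted p = 0.943).

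The rats with the highest values were shared by some members. In normalised counts Wistar replicate 1, SHR replicate 2 and SHR replicate 4 were the 3 highest rats for Gapdh, Pgk1, Eno1 and Ldha. In TPM the 3 were not the highest for any of the 4 genes, since SHR replicate 3 exceeded SHR replicate 2 in each (for Gapdh 5435 against 5328 TPM), and Wistar replicate 1 and SHR replicate 2 had the lowest TMM factors, 0.945 and 0.962. For Gapdh these 3 stood at 190518, 184815 and 180947 normalised counts and the other 5 rats between 147223 and 161416. For Ldha they stood at 89362, 78407 and 80948 and the other 5 between 65768 and 72013. SHR replicate 1 had the lowest normalised count for 6 of the 10 members, namely Slc2a3, Gapdh, Pgk1, Eno2, Pkm and Ldha, and the second highest TPM of Slc2a1. Gpi, which isomerises glucose 6-phosphate, was the record most like Eno1 (r = 0.981 over 8 rats).

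Around the members, the list of glycolytic enzymes held 36 records of 29 genes, of which 29 records were tested. By edgeR 1 fell and none rose, 3.45% of those tested, with a median log2 fold change of 0.02. The one that fell was Pfkl, the liver-type phosphofructokinase, at 93.1, 94.3, 102 and 100.2 TPM in Wistar replicates 1 to 4 and 64.6, 69.3, 88.2 and 56.1 TPM in SHR replicates 1 to 4. All 4 SHR lay below all 4 Wistar rats, in normalised counts too, as in 5.96% of all tested records, with a log2 fold change of -0.49 (SE 0.11, edgeR adjusted p = 0.0483). The call was close to the threshold and held in 6 of 22 alternative fits, with adjusted p from 0.00619 to 0.193 and the same sign throughout. The other phosphofructokinases were more abundant and did not pass, with Pfkp at 616 TPM in Wistar and 620 TPM in SHR (adjusted p = 0.960) and Pfkm at 209 and 199 TPM (adjusted p = 0.783). The muscle phosphoglycerate mutase Pgam2 stood at 3.61 ± 0.23 TPM in Wistar and 6.44 ± 1.24 TPM in SHR (SD, n = 4 per strain, log2 fold change 0.85, edgeR adjusted p = 0.0664), and it passed in 6 of 22 alternative fits. The most abundant enzyme record was that of Aldoa, aldolase A, with 6414 ± 252 TPM in Wistar and 5824 ± 521 TPM in SHR (SD, n = 4 per strain, adjusted p = 0.502).

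**Figure D5:**
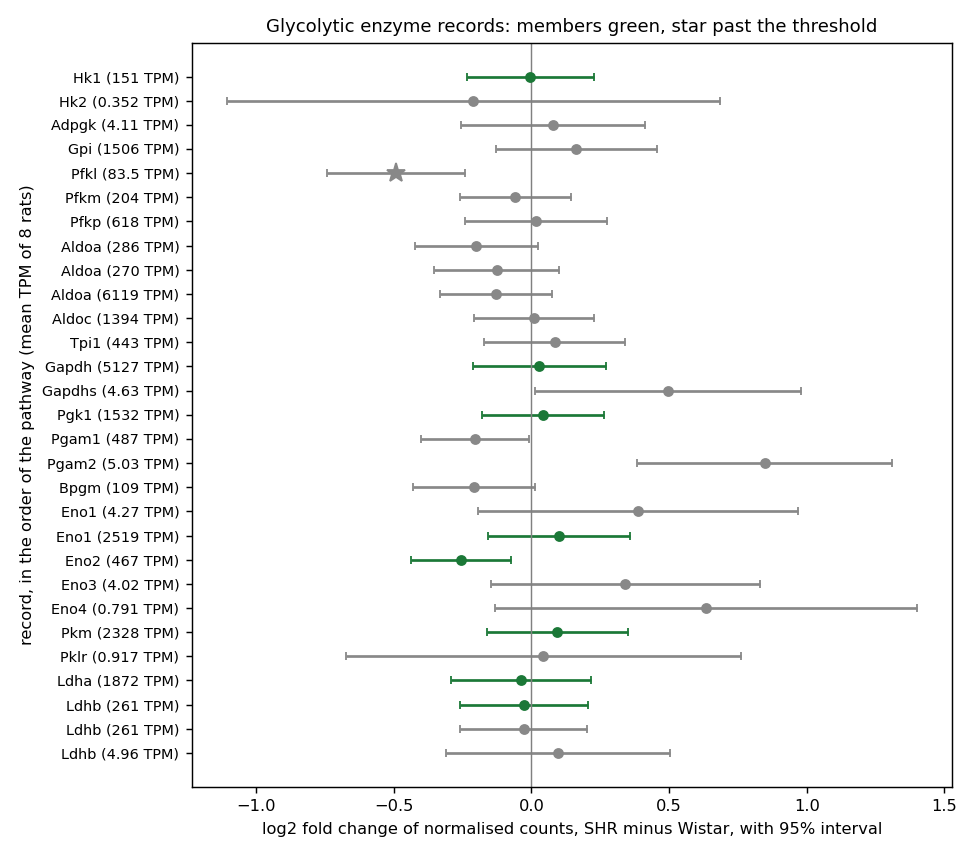
Log2 fold change of normalised counts (SHR minus Wistar, x axis) with 95% intervals for the 29 tested records of the glycolytic enzyme list, in pathway order (y axis, with mean TPM). Members are green, and the star marks Pfkl at -0.49, the one record past the threshold. The intervals are widest for records of a few TPM or less.

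Over all 11 lists of neighbouring pathways, 137 records were tested, none rose and 2 fell by edgeR (1.46%, beside 2.85% of all tested records). The second that fell was Phkb, the beta subunit of phosphorylase kinase, which activates glycogen breakdown. It stood at 12.6, 16.5, 15.8 and 10.6 TPM in Wistar replicates 1 to 4 and 8.37, 7.48, 9.70 and 8.90 TPM in SHR replicates 1 to 4, with no overlap, nor any in normalised counts (as in 5.96% of all tested records in this direction), and a log2 fold change of -0.67 (SE 0.14, edgeR adjusted p = 0.0285). It passed in 13 of 22 alternative fits. Among the other 13 tested records of glycogen metabolism none passed by edgeR, DESeq2 or limma, for example the brain phosphorylase Pygb with 162 TPM in Wistar and 173 TPM in SHR (adjusted p = 0.712). Of the list's 14 tested records 6, Phkb included, had an unadjusted p under 0.05 by edgeR, where 16.8% of all tested records did. DESeq2 gave 4 such records and limma on log2(TPM + 1) gave 3. The list's median log2 fold change was -0.17, with 4 positive and 10 negative.

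The 10 records of lactate and pyruvate carriers held no call by edgeR, DESeq2 or limma (2 at an unadjusted p under 0.05 by edgeR, where 16.8% of all tested records were) and had a median log2 fold change of -0.28. Bsg averaged 782 ± 252 TPM in Wistar and 520 ± 277 TPM in SHR (SD, n = 4 per strain, adjusted p = 0.457). Without replicate 1 of both strains, a fit that called 7.79% of all records, 2 of the 10 fell, Bsg and the lactate carrier Slc16a1. For Bsg, Wistar replicate 1 (405 TPM) lay among SHR replicates 2 to 4, and SHR replicate 1 (917 TPM) among Wistar replicates 2 to 4. Leaving these rats out therefore widened the Bsg difference by construction. The mitochondrial pyruvate carrier Mpc1, at 466 and 486 TPM, did not pass (adjusted p = 0.740). The 11 records of the pyruvate dehydrogenase complex and its kinases held no call by edgeR, DESeq2 or limma (3 at an unadjusted p under 0.05 by edgeR, median -0.18). Without replicate 1 of both strains 3 of the 11 fell, Pdk4, Pdk2 and Pdp1, and no other pair of rats was left out for comparison. Its most abundant records were Pdha1, with 243 and 217 TPM (adjusted p = 0.447), and Pdhb, with 225 and 186 TPM (adjusted p = 0.208). 

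No call by edgeR was found in the 8 records of the pentose phosphate pathway (median -0.04), the 6 of the fructose 2,6-bisphosphate enzymes (median 0.08), the 9 of the NADH shuttles (median -0.09) and the 7 of gluconeogenesis (median 0.11). At an unadjusted p under 0.05 these lists held 1, 0, 1 and 1 records by edgeR. DESeq2 called 1 of them, Fbp1 of gluconeogenesis, lower in SHR, and limma none. The most abundant records of these lists, Taldo1 and Tkt, Tigar and Pfkfb3, Mdh2 and Mdh1, and G6pc3 and Pck2, had adjusted p between 0.499 and 0.993.

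Of the regulators of glucose uptake and glycolysis 16 records were tested and none passed by edgeR (1 at an unadjusted p under 0.05). That record was Egln3, an oxygen-sensing prolyl hydroxylase that marks hypoxia-inducible factors for breakdown, at 68.0 ± 21.0 TPM in Wistar and 39.9 ± 6.99 TPM in SHR (SD, n = 4 per strain, adjusted p = 0.0929), and DESeq2 called it. Txnip, which restrains glucose uptake, did not pass (adjusted p = 0.549). Of the hypoxia response genes outside glycolysis 16 records were tested and none passed by edgeR (3 at an unadjusted p under 0.05). They were Hmox1, haem oxygenase, at 26.0 ± 1.98 TPM in Wistar and 35.6 ± 2.95 TPM in SHR (adjusted p = 0.0739), Mxi1 (log2 fold change 0.50, adjusted p = 0.101) and Bnip3, a mitophagy receptor (-0.26, adjusted p = 0.233). DESeq2 called Hmox1 and Mxi1, and limma called Hmox1. The members with ACGTG in a promoter window, Slc2a1, Hk1, Gapdh, Eno2 and Ldha, had log2 fold changes of -0.41, -0.00, 0.03, -0.26 and -0.04. The members whose windows held no ACGTG, Eno1, Pkm and Ldhb, had 0.10, 0.09 and -0.03. The windows of Eno1 and Ldhb do hold the other form, GCGTG or its complement CACGC. The groups therefore do not separate genes with the sequence from genes without it. GCGTG was not counted over all windows.

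Other marker lists were checked for cells that a ganglion can hold. The edgeR calls among them were the 3 neuronal records and the Flt1 record given above and 1 record of satellite glia, Apoe NM_001270684, which was higher in SHR. The 5 Apoe records had counts that were not whole, as reads divided among records give, and the most abundant, NM_138828, at 181 to 977 TPM in Wistar and 202 to 337 TPM in SHR, had a log2 fold change of -0.99 (edgeR adjusted p = 0.328), opposite in sign. No record of myelinating Schwann cells, smooth muscle and pericytes, fibroblasts, macrophages, adipocytes, skeletal muscle or red blood cells was called. Summed smooth muscle records ran from 74.5 to 149 TPM in Wistar and from 38.6 to 150.1 TPM in SHR, lowest in SHR replicates 3 and 4, where Slc2a1 was lowest too. Macrophage records were also lowest in these 2 rats, at 20.8 and 30.1 TPM against 50.7 to 94.7 TPM in the other 6, and fibroblast records were lowest in SHR replicate 3, at 506 TPM against 761 to 1574 TPM in the other 7. Myelinating Schwann cell records went the other way, at 1669 TPM in SHR replicate 1, the lowest of all rats. They stood at 2220 and 2081 TPM in SHR replicates 3 and 4. Satellite glia records summed to 1205, 895, 1137 and 1162 TPM in SHR replicates 1 to 4 and to 971 to 1693 TPM in Wistar. The part of any of these cells in the Slc2a1 values was not tested.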

How the data were processed

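RNA of 8 right stellate ganglia, 4 per strain, was sequenced with 1 library per rat. Per the labels the library kit was TruSeq Stranded mRNA, whereas the study's methods name SMARTer. The authors quantified reads with Salmon 0.8.2 (FastQC 0.11.7 and build rn6 are also named in the submitters' processing notes) and deposited, for each RefSeq record, an estimated count, which need not be whole and is not scaled between samples, and a TPM. The deposited lengths served the length offset. RefSeq's gene table gave symbols for 17360 of 18314 records.

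Estimated counts were rounded, scaled by TMM, filtered with filterByExpr and tested over all records with edgeR 4.0.16 (R 4.3.3, quasi-likelihood, Benjamini-Hochberg 0.05). The SE is the log2 fold change over the root of F. Ratios of TPM used exact permutation tests. Alternatives were DESeq2 1.42.0, limma 3.58.1 on log2(TPM + 1) and log2(TPM + 0.1), other scaling, filters and offsets, the newer quasi-likelihood fit, records summed to genes, a replicate block, and leaving out rats. The fits were tested on simulated data. Named from each list were up to 4 called records and the 2 with the highest TPM, and others were chosen after their values were seen. Likeness was Pearson's r of log2 CPM (prior count 2). Members and lists were chosen with earlier results of these data known.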

Additional observations from a re-analysis of the deposited data

Results flagged for a closer look

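In 30 groups of 4 rats (10 members and 5 ratios in each strain) the gap of the lowest or highest rat to its neighbour was set against the whole range of the group. The gap exceeded Dixon's 95% critical value for 4 samples in 3 groups, where chance gives about 1.5. Hk1 reached 199.6 TPM in SHR replicate 3 and 131 to 142 TPM in the other SHR. Gapdh stood at 4351 TPM in SHR replicate 1, below 5328 to 5498 TPM in the other SHR. Pgk1 stood at 1358 TPM in the same rat, below 1585 to 1622 TPM. These flags were taken in TPM only. In normalised counts SHR replicate 1 lay nearer to SHR replicate 3, at 147223 and 159840 for Gapdh and 56308 and 58245 for Pgk1. Gapdh and Pgk1 also moved together (r = 0.956 over 8 rats), so their flags are not independent.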

How the results depend on the processing

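No member passed the threshold in any of 22 alternatives. No ratio passed in any of its alternatives, which were 13 for Ldhb to Ldha and 12 for each of the others. With 4 rats against 4 a single ratio at the smallest possible p had an adjusted p of 0.143 over the 5 ratios, so the alternatives say nothing of the ratios' stability. The count over all records was 782 with DESeq2, 852 with DESeq2 and a length offset, 132 with the replicate block, 1068 without replicate 1 of both strains and 237 to 454 when each rat was left out. Upper quartile factors moved the median log2 fold change of all records from 0.01 to 0.07, and the members' values moved with it. The labels' numbers did not pair the rats. Deviations of rats with the same number correlated at -0.29 to -0.04, and 0 of 8 correlated best with their own number. With the replicate block the log2 fold change was -0.26 for Eno2 and -0.53 for Slc2a1, and both lists with a call held 0.

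The count for the glycolytic enzymes was 2 with DESeq2, with its length offset, and with at least 10 counts in every rat (Pfkl lower and Pgam2 higher), 2 without replicate 1 of both strains (Gpi and Pgam2, both higher), 0 with DESeq2 size factors or upper quartile factors in edgeR, without a filter, without NR_ records and with records summed to genes, and 0 to 1 when each rat was left out. With limma the 1 call was Pgam2. For glycogen metabolism it was 0 with limma at either pseudocount, 2 without replicate 1 of both strains and 0 to 1 leaving out each rat. Without replicate 1 of both strains the lactate and pyruvate carriers had 2, the pyruvate dehydrogenase list 3 and the regulators 2. DESeq2 with or without the offset gave 1 for gluconeogenesis, 1 for the regulators and 2 for the hypoxia list, and upper quartile factors and limma at either pseudocount gave 1 for the hypoxia list. Leaving out each rat gave 0 to 1 for the fructose 2,6-bisphosphate enzymes and the regulators. The causes were not tested. The lowest normalised count of a member was 1128, for Slc2a1 in SHR replicate 4.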
